A study of Sus scrofa with 20 samples.

Results

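The albumin gene family comprises ALB, AFP, AFM and GC, and all 4 genes were chosen by name and found among the 25764 rows of the deposited pig RNA-seq table. The table held 20 libraries, of which 5 were from porcine biliary tree stem cells (pBTSCs) and 15 from sorted cells of pig liver. The pBTSCs were labelled as gallbladder and were described in the study's methods as coming from newborn piglets. The liver groups were CD45+ (n = 5), CD45-/EpCAM+ (n = 4), CD45-/EpCAM- (n = 2), CD31+ (n = 2) and CD146+ (n = 2), named by the surface proteins used to sort them: CD45 on blood-derived cells, EpCAM on epithelial cells, CD31 on endothelial cells and CD146 on endothelial and perivascular cells. No library carried a treatment. The study describes BTSCs as CD45-/EpCAM+ cells of the biliary tree. Its methods say that selected stem/progenitor cells were kept for some hours in serum-free medium. There they formed organoids together with early mesenchymal cells. Whether each pBTSC library went through this step was not stated library by library. The study's supplement lists pBTSC libraries S2, S7 and S11 as piglets of an H2B-GFP line, in which histone H2B joined to green fluorescent protein is expressed in all tissues from the ACTB locus, and S15 and S20 as wild-type piglets. Of liver cells the methods say in general that the pig livers were fetal or neonatal, while the donor, age and line of each liver library were not given in the sources used here. Libraries are named by the number in their title. Liver libraries S3 to S14 (n = 8) are described apart from S16 to S23 (n = 7) because AFP separates there, so that split was taken from the values themselves and is given without a test.

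The proteins of this family are secreted into plasma, mostly by hepatocytes, and carry molecules that dissolve poorly in water. Albumin, from ALB, is the main protein of plasma, carries fatty acids and bilirubin and holds water in the circulation. Alpha-fetoprotein, from AFP, is its fetal counterpart, made by the yolk sac and fetal liver and switched off in hepatocytes after birth. Afamin, from AFM, carries vitamin E and binds Wnt proteins, and the vitamin D-binding protein, from GC, carries vitamin D metabolites and binds actin released from cells. In the RefSeq gene table of the pig assembly Sscrofa11.1, ALB (ENSSSCG00000008948), AFP (ENSSSCG00000008949) and AFM (ENSSSCG00000008950) follow each other with no gene between them. GC (ENSSSCG00000027609) lies on the same chromosome with 8 annotated genes between it and ALB. A long noncoding RNA gene, LOC110262121, overlaps GC, and whether strand was used in counting was not given in the sources used here.

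The values are normalized counts, that is, read counts brought to a common scale between libraries, and they are not divided by gene length, so the levels of different members are not ranked against each other. Library totals lay between 17651538 and 30268263 normalized counts. The depth, estimated from the step between the lowest values, was 21260199 to 77876157 reads in 17 libraries but only 799719 in S13, 1564391 in S15 and 454859 in S22. Among the liver libraries, the sort labels did not separate the transcriptomes: the nearest library by correlation belonged to the same sort for 1 of 15 libraries and to the same title number range for 15 of 15. PTPRC, which encodes CD45, stood at 424 to 2687 normalized counts in the CD45+ libraries and at 450 to 3027 in the 6 CD45- liver libraries. Hepatocyte genes were high in every liver library, with 36036 to 262800 normalized counts summed over 8 hepatocyte markers, so levels in a liver group are those of the library labelled so, not of a cell type. In such bulk samples, fewer cells of a type and less RNA per cell cannot be told apart. The 5 pBTSC libraries came from 5 different piglets, but which liver libraries share a donor was not given in the sources used here, so p-values measure the spread between these libraries, which for liver may be partly technical.

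**Figure D1:**
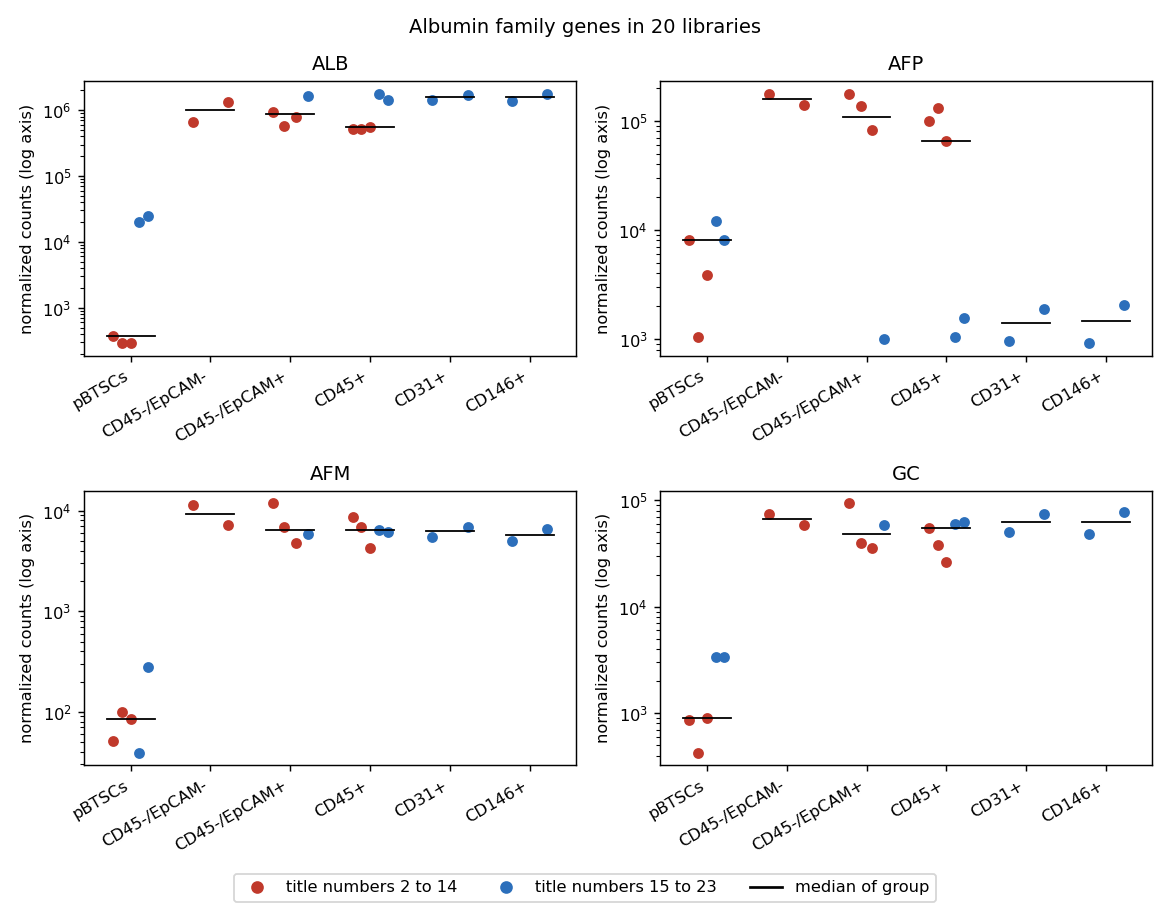
Normalized counts (log axis) of ALB, AFP, AFM and GC in each of 20 libraries, with 1 point per library, a line at the median of each of 6 groups and colour for the title number range. The 5 pBTSC libraries lie below all 15 liver libraries for ALB, AFM and GC, whereas for AFP the liver libraries form a high set (65022 to 176993) and a low set (914 to 2034) with the pBTSCs reaching from 1048 to 12087.

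ALB, AFM and GC were far lower in pBTSCs than in every liver group, whereas AFP was called lower against CD45-/EpCAM- cells alone. Both CD45-/EpCAM- libraries lie in S3 to S14, the range split off for high AFP, so that call is not read as particular to the sort. Up to S14 the AFP log2 difference of pBTSCs was -5.29 from CD45-/EpCAM+ cells and -4.88 from CD45+ cells. From S15 on it was 3.29 and 2.94. These differences within a range were not tested. By limma with Benjamini-Hochberg adjustment over the 15576 genes tested, with a call at an adjusted p under 0.05 and a log2 fold change beyond 1 in size, 3 of the 4 members were called lower in pBTSCs than in CD45-/EpCAM+ liver cells, where 10.3% of all genes were called lower. The count was 4 of 4 against CD45-/EpCAM- cells (16.6% of all genes called lower). It was 3 of 4 against CD45+ (9.54%), CD31+ (7.62%) and CD146+ cells (7.75%), and AFP was the member not called in each of them. Together the 4 members made up 3.02% to 7.91% of the total in liver libraries and 0.00999% to 0.189% in pBTSCs. These 5 comparisons share the same pBTSC libraries.

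ALB differed most in size and spread most among the pBTSC libraries. It stood at 376, 287 and 288 normalized counts in S2, S7 and S11 and at 19832 and 25087 in S15 and S20. The 2 libraries listed as wild-type piglets were thus far above the 3 of the H2B-GFP line. The supplement also lists less intact RNA for S2, S7 and S11 than for S20, with no integrity value for S15, and the part of RNA quality in this difference was not tested. All 5 pBTSC libraries were below the lowest liver library, S8 at 513084. In CD45+ liver cells ALB stood at 525057 in S3, 513084 in S8, 563788 in S12, 1759865 in S18 and 1419388 in S23. In CD45-/EpCAM+ cells it stood at 929142 in S4, 567871 in S9, 794426 in S13 and 1658645 in S19. Both sorts therefore held low and high libraries, and they overlapped over nearly their whole range. The CD45-/EpCAM- libraries S5 and S14 had 663869 and 1348204, the CD31+ libraries S16 and S21 had 1428842 and 1688992, and the CD146+ libraries S17 and S22 had 1366702 and 1789958.

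The fitted log2 fold change of ALB in pBTSCs against CD45-/EpCAM+ cells was -9.04 ± 1.24 (SE; adjusted p = 2.3e-05, limma). It lay between -8.89 and -9.82 against the other 4 sorts. An exact two-sided permutation test of pBTSCs (n = 5) against CD45-/EpCAM+ cells (n = 4) gave p = 0.0159, the smallest p these group sizes allow, and 0.0212 after adjustment over the 4 members. Ordered by median, the ALB levels ran from CD146+ through CD31+, CD45-/EpCAM-, CD45-/EpCAM+ and CD45+ to pBTSCs. The ranges of neighbours in that order overlapped except between CD31+ and CD45-/EpCAM- and between CD45+ and pBTSCs. The CD31+ and CD146+ sorts occur only among S16 to S23 and CD45-/EpCAM- only among S3 to S14, so sort and title number range cannot be told apart for them.

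AFP gave no common direction. In pBTSCs it stood at 8066 normalized counts in S2, 1048 in S7, 3856 in S11, 12087 in S15 and 8054 in S20. The CD45+ libraries held 98727 in S3, 130426 in S8 and 65022 in S12, but 1043 in S18 and 1574 in S23. The CD45-/EpCAM+ libraries held 176993 in S4, 135080 in S9 and 82342 in S13, but 1004 in S19. Within both sorts, AFP was high in every library up to S14 and low in every library from S18 on.

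The remaining sorts each lay in 1 range. AFP was 175531 and 139155 in the CD45-/EpCAM- libraries S5 and S14, 961 and 1870 in the CD31+ libraries S16 and S21, and 914 and 2034 in the CD146+ libraries S17 and S22. The value in S22 rests on an estimated 39.0 reads. By median the order was CD45-/EpCAM-, CD45-/EpCAM+, CD45+, pBTSCs, CD146+ and CD31+, and every neighbour in this order overlapped with the next.

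The pooled fit for AFP thus joined liver libraries of both kinds. Its log2 fold change in pBTSCs was -2.90 ± 1.56 SE (adjusted p = 0.153, limma) against CD45-/EpCAM+ cells, and -4.64 without S19. S19 is the only library of that sort in the range where AFP is low, so nothing is read from leaving it out. The log2 fold change of AFP was -1.75 (adjusted p = 0.392) against CD45+ cells, 1.90 (adjusted p = 0.600) against CD31+ cells and 1.88 (adjusted p = 0.513) against CD146+ cells. Against CD45-/EpCAM- cells AFP was called lower (-4.96 ± 1.95, SE; adjusted p = 0.0426), a call that was lost under 14 of 30 alternative settings (adjusted p from 0.0506 to 0.195), among them leaving out any of S2, S5, S7, S11, S14, S16, S20 or S21. The exact permutation test gave p = 0.127 against CD45-/EpCAM+ cells (n = 5 and n = 4) and p = 0.0346 against the 6 CD45- libraries. Of these 6 libraries S19 alone lies in the range split off for low AFP. The second p-value therefore follows how that split falls on the sorts, and nothing is read from it.

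AFM had 50.7, 99.8, 84.6, 39.0 and 279 normalized counts in the pBTSC libraries S2, S7, S11, S15 and S20. The value in S15, which was sequenced shallowly, rests on an estimated 3.10 reads and lies at the detection floor of 3 reads (37.8 normalized counts). In liver AFM ranged from 4298 in S12 to 11931 in S4, with a median of 6508 over the 15 libraries. The lowest liver library was therefore above the highest pBTSC library, and the ranges of all 5 liver sorts overlapped with their neighbours. The mean of AFM was 110.7 ± 97.5 (SD) over the 5 pBTSC libraries and 7391 ± 3154 (SD) over the 4 CD45-/EpCAM+ libraries, a log2 fold change of -6.32 ± 0.42 (SE; adjusted p = 1.2e-08, limma). Against the other sorts it lay between -6.03 and -6.71.

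GC had 856, 423 and 910 normalized counts in S2, S7 and S11 and 3376 and 3361 in S15 and S20. As for ALB, the 2 libraries listed as wild-type lay above the 3 of the H2B-GFP line. In liver GC ranged from 26434 in S12 to 94549 in S4. All liver sorts overlapped with their neighbours by level, and the pBTSCs lay below every liver library. The mean of GC was 1785 ± 1458 (SD) over the 5 pBTSC libraries and 56886 ± 26994 (SD) over the 4 CD45-/EpCAM+ libraries, with a log2 fold change of -5.34 ± 0.52 (SE; adjusted p = 5.9e-07, limma). Against the other sorts it lay between -5.15 and -5.66. For AFM and for GC the exact permutation test against CD45-/EpCAM+ cells gave p = 0.0159 (n = 5 and n = 4).

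**Figure D2:**
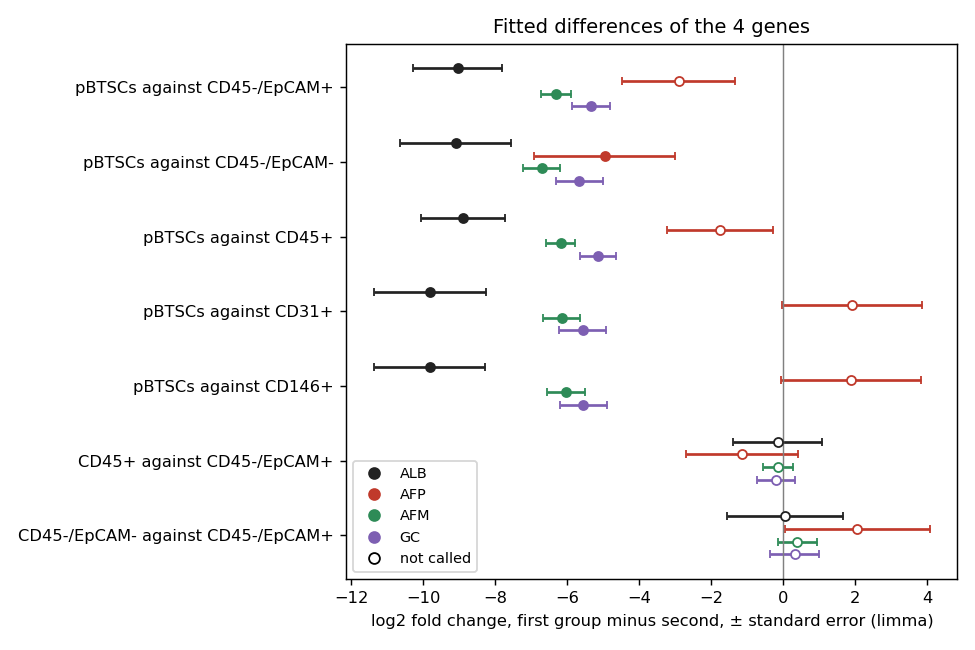
Fitted log2 fold changes (limma, first group minus second) of the 4 genes in 7 comparisons, with bars of 1 standard error, filled where the gene was called and open where it was not. ALB, AFM and GC lie between -5.15 and -9.82 in the 5 comparisons of pBTSCs with liver, AFP runs from -4.96 to 1.90, and no gene is called in the 2 comparisons between liver sorts.

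Between liver sorts, 0 of 4 members were called by limma, and 0 had an unadjusted p under 0.05. In CD45+ against CD45-/EpCAM+ cells the log2 fold changes were -0.15 for ALB, -1.15 for AFP, -0.14 for AFM and -0.19 for GC. In this comparison 0% of all genes were called by limma, and 214 of 15576 had an unadjusted p under 0.05. When each CD45+ library was set beside the CD45-/EpCAM+ library of the next title number (S3 with S4, S8 with S9, S12 with S13, S18 with S19), each of the 4 members was lower in the CD45+ library in 3 of 4 pairs, S18 with S19 being the exception. In CD45-/EpCAM- against CD45-/EpCAM+ cells, where 2.80% of all genes were called, they were 0.05 for ALB, 2.06 for AFP (SE 2.01; adjusted p = 0.592), 0.39 for AFM and 0.32 for GC. Within S3 to S14 the AFP difference of CD45-/EpCAM- from CD45-/EpCAM+ cells was 0.32, and that of CD45+ from CD45-/EpCAM+ cells was -0.41.

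Among the 4 members, AFP, which drew the split, differed most between the title number ranges of the liver libraries. AFP had a median of 132753 normalized counts (65022 to 176993) in S3 to S14 and of 1043 (914 to 2034) in S16 to S23, with no overlap. The mean log2 difference was 6.54, or 93.2-fold, the 17th highest of 15576 genes. Nothing is read from this size or rank, because the split was drawn where AFP separates. ALB went the other way, with a median of 615870 (513084 to 1348204) in S3 to S14 and 1658645 (1366702 to 1789958) in S16 to S23, a log2 difference of -1.18. The ALB ranges did not overlap, but S14 was close to S17. AFM (log2 difference 0.28) and GC (-0.32) overlapped between the ranges.

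Of all genes, 2.77% were higher in S3 to S14 without overlap and by more than 1 on the log2 scale, as AFP was, and 3.53% were lower in the same sense, as ALB was. Since AFP drew the split, nothing is read from these counts. Inside the CD45+ sort the log2 differences were 6.20 for AFP and -1.57 for ALB, and inside the CD45-/EpCAM+ sort, where S19 alone represents the later range, they were 6.96 and -1.15. AFM and GC differed inside these sorts by 0.00 and -0.68 in CD45+ and by 0.31 and -0.19 in CD45-/EpCAM+ libraries.

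**Figure D3:**
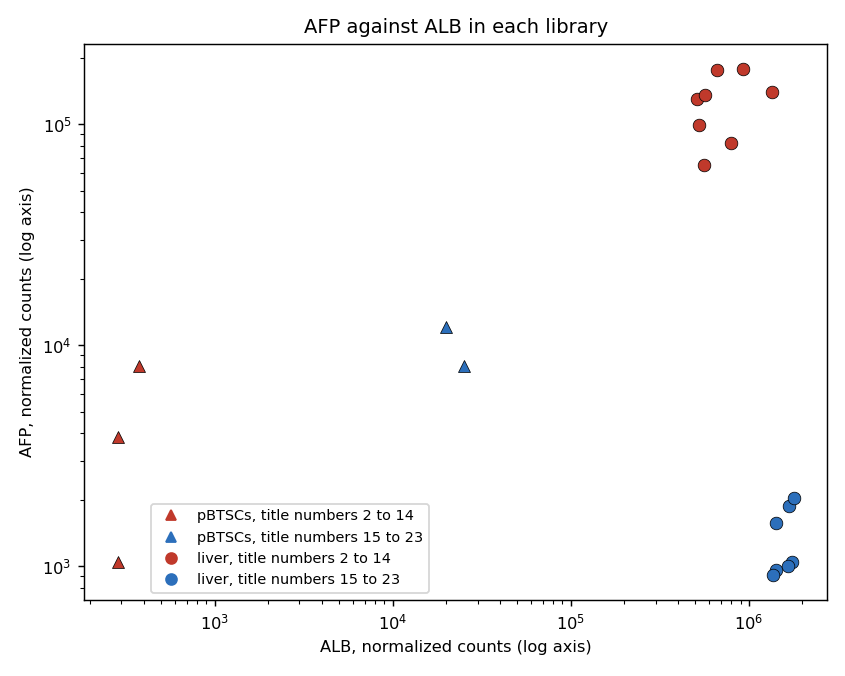
AFP against ALB (normalized counts, both axes logarithmic) in 20 libraries, with triangles for pBTSCs, circles for liver and colour for the title number range. Liver libraries S3 to S14 lie at AFP of 65022 or more, liver libraries S16 to S23 at 2034 or less with ALB of 1366702 or more, and the 5 pBTSC libraries to the left of both sets.

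Expressed per 100 normalized counts of ALB in the same library, AFP had a median of 18.9 (10.3 to 26.4) in liver S3 to S14 and of 0.0673 (0.0593 to 0.114) in liver S16 to S23. In pBTSCs the ratio was 2143 in S2, 365 in S7, 1338 in S11, 60.9 in S15 and 32.1 in S20, above every liver library. AFM per 100 ALB had medians of 1.25 (0.539 to 1.72) and 0.366 (0.357 to 0.437) in the earlier and later liver libraries, and GC per 100 ALB of 7.19 (4.35 to 11.1) and 3.55 (3.43 to 4.43). For AFM the ratio thus differed without overlap although AFM itself overlapped, whereas for GC the ratios just overlapped. In pBTSCs GC per 100 ALB lay between 13.4 and 316. AFM per 100 ALB was 13.5 in S2, 34.8 in S7 and 29.3 in S11, above every liver library. In S20 it was 1.11, inside the liver range, and in S15 0.197, below every liver library, with AFM at the detection floor. The ratios serve to compare libraries, not the output of the genes, since the lengths of the transcripts differ.

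Among genes of other families, the erythroid markers moved with the title number ranges as AFP did. Of 5 tested, 4 were higher in S3 to S14 without overlap, and the fifth, KLF1, a transcription factor of red cell precursors, was at 0 in at least 1 library of each range. Summed, the erythroid markers stood at 12573 to 877234 normalized counts in S3 to S14 and at 1452 to 2563 in S16 to S23. HBB, the beta chain of hemoglobin, stood at 11736 to 840919 and 1355 to 2480. Within S3 to S14 the sum was 12573 to 15951 in CD45+, 16528 to 44053 in CD45-/EpCAM+ and 192704 and 877234 in CD45-/EpCAM- libraries. AFP spanned 65022 to 176993 over the same libraries. In pBTSCs the erythroid sum was 29240 to 128661. The part of the erythroid markers in the AFP difference was not tested. Of 8 hepatocyte markers CYP2E1 alone, a cytochrome P450 that oxidizes small molecules, differed without overlap, being lower in S3 to S14 (2937 to 6848 against 12969 to 42673).

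Of the 12 other plasma proteins, 10 transcription factors, 6 genes of receptors and uptake and 6 vitamin D genes, 0 differed without overlap by more than 1 on the log2 scale. Of 4 oncofetal genes DLK1, a membrane protein of fetal liver, differed, and it was lower in S3 to S14 (0 to 96.4 against 184 to 523), opposite to AFP. GPC3, a proteoglycan also used as a marker of fetal liver, overlapped (5859 to 26768 against 8068 to 10425). CEBPB, an inducible activator of liver genes, was higher without overlap but by 0.66 only, and ZHX2, a repressor of AFP after birth, was lower by a log2 difference of -0.81. ZBTB20, the other known repressor of AFP in postnatal liver, overlapped (567 to 1117 against 445 to 755).

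In the other lists PECAM1 among 6 endothelial markers and COL3A1 among 6 mesenchymal markers alone differed without overlap by more than 1 on the log2 scale. Both were lower in S3 to S14. All 6 endothelial markers were lower there, with log2 differences from -1.20 to -0.17. Over all genes the median log2 difference was 0.01, and the medians of the lists were -0.18 for the plasma proteins, -0.08 for the transcription factors, 0.52 for the oncofetal genes and 5.58 for the erythroid markers. The median was -0.85 for the endothelial markers and lay between -0.33 and 0.42 for the remaining lists.

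**Figure D4:**
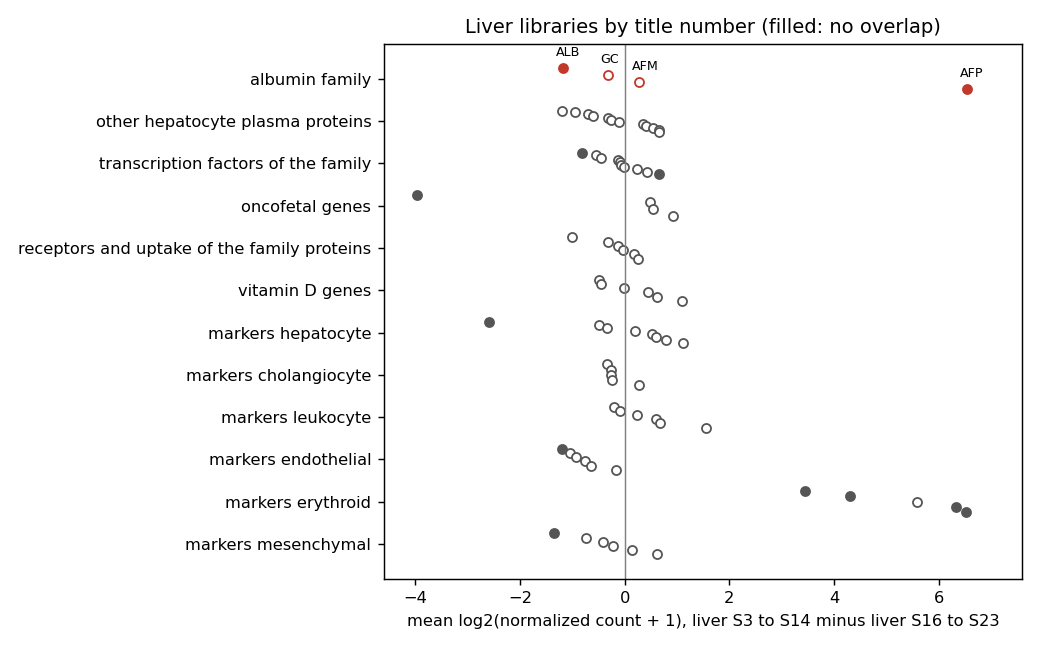
Mean log2 difference of liver libraries S3 to S14 (n = 8) minus S16 to S23 (n = 7) for the 4 genes and for the genes of 11 lists, filled where the ranges did not overlap. AFP lies at 6.54 and ALB at -1.18, the erythroid markers between 3.45 and 6.53, and the 12 other plasma proteins between -1.19 and 0.66.

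Compared with liver libraries of the same title number range, the pBTSC libraries gave AFP differences of opposite sign. Up to S14, all 4 members were lower in pBTSCs than in liver without overlap, with mean log2 differences of -11.11 for ALB, -5.22 for AFP, -6.58 for AFM and -6.14 for GC. In this range 27.6% of all genes differed without overlap and by more than 1 on the log2 scale, in either direction. From S15 on, where 22.5% of all genes did so, ALB (-6.15), AFM (-5.83) and GC (-4.18) were again lower, but AFP was 7.72-fold higher in pBTSCs (2.95 on the log2 scale). Among pBTSCs the AFP values of S15 and S20 (12087 and 8054) were not both above those of S2, S7 and S11 (1048 to 8066), whereas the liver libraries separated fully. With 2 pBTSC libraries in the later range no test of the difference was made, and piglet line and title number range cannot be told apart in pBTSCs. Because AFP also drew the liver split, nothing is read from the opposite signs.

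As a percent of the liver median of the same range, ALB in S2, S7 and S11 was 0.0611%, 0.0466% and 0.0468%, and in S15 and S20 1.20% and 1.51%. GC was 1.81%, 0.894% and 1.92% in the former and 5.59% and 5.56% in the latter. AFM was 0.714%, 1.40% and 1.19%, and then 0.629% and 4.51%. AFP was 6.08%, 0.789% and 2.90% in S2, S7 and S11 but 1159% and 772% in S15 and S20. For S15 and S20 the liver median of AFP was 1043 normalized counts, against 132753 for the others, the difference that drew the split.

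Hepatocyte markers moved with ALB across the pBTSC libraries. The 8 markers had a median of 0.0985%, 0.0661% and 0.117% of liver in S2, S7 and S11, and of 1.62% and 2.63% in S15 and S20. Their summed level was 304 to 663 normalized counts in the former and 2340 and 3099 in the latter, against at least 36036 in liver, and none was under the floor in any pBTSC library. The 12 other plasma proteins had medians of 0.150%, 0.213% and 0.137%, and of 1.32% and 2.79%. ALB lay inside the range of the 8 hepatocyte markers in all 5 libraries, and in S20 it lay below all 12 plasma proteins. GC lay above all 8 hepatocyte markers in S2, S11 and S15. AFP lay above all 8 in S2, S11, S15 and S20, with S7 the exception, and above the 12 plasma proteins as well in S15 and S20. In S15 and S20 AFP was measured against the liver set split off for its low AFP, so nothing is read from its place there. APOA1, the main protein of high-density lipoprotein, stood apart among the plasma proteins at 28.3% to 38.9% of liver in all 5 libraries. The part of hepatocyte RNA in the pBTSC levels was not tested.

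**Figure D5:**
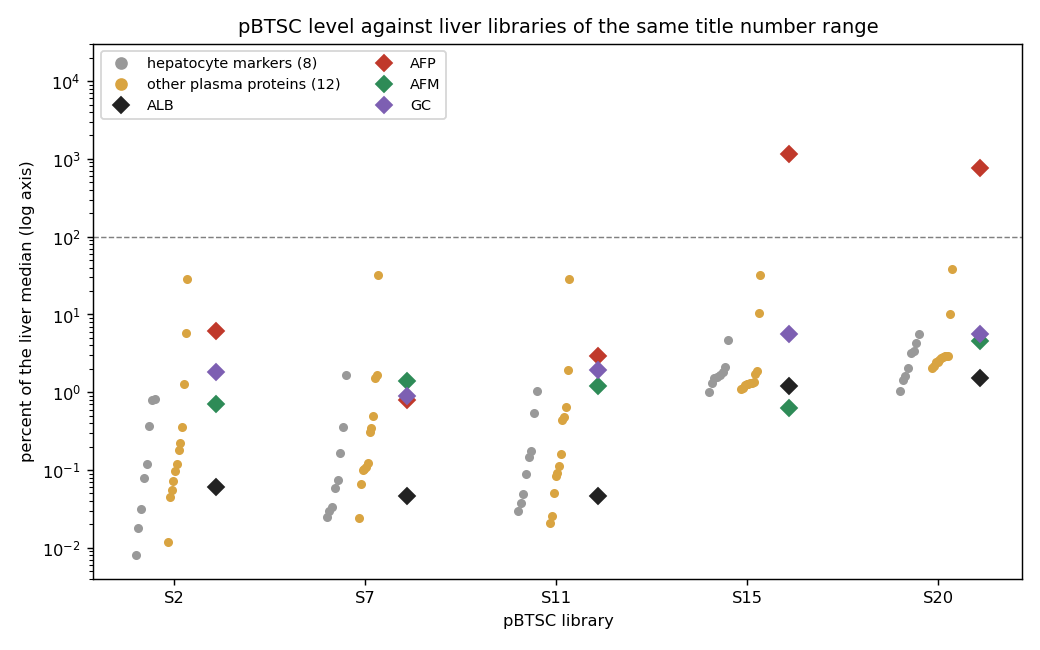
Level in each of the 5 pBTSC libraries as a percent of the median of the liver libraries in the same title number range (log axis, dashed line at 100%), for the 4 genes, 8 hepatocyte markers and 12 other plasma proteins. AFP in S15 (1159%) and S20 (772%) lies above the line, and every other point lies below it.

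In the comparison of pBTSCs with CD45-/EpCAM+ cells, the 12 other plasma proteins and the 8 hepatocyte markers were all called lower, with median log2 fold changes of -7.71 and -8.28 beside 0.08 over all genes. Both lists were lower to the last gene in each of the other 4 comparisons with liver too. Of 10 transcription factors known to act on the family, 7 were lower and 0 higher. Of all genes, 10.3% were called lower and 14.8% higher in this comparison. HNF4A, a nuclear receptor that maintains hepatocyte gene expression, stood at 880 ± 320 (SD, n = 5) against 3831 ± 1816 (SD, n = 4) normalized counts, a log2 fold change of -2.09. FOXA3, a pioneer factor of liver genes, had a log2 fold change of -4.73, a size that depends on values near the floor. Against all liver libraries of the same title number range, FOXA3 differed by -3.62 up to S14 and by -6.61 from S15 on. In S15 and S20 the lower value was 0 and the higher 31.6 normalized counts, and the floor of S15 is 37.8. CEBPB, ZBTB20 and ZHX2 were not called.

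Of 4 oncofetal genes 3 were lower in pBTSCs, where 10.3% of all genes were called lower. These were GPC3 (-2.01), LIN28B (-3.39), which blocks maturation of let-7 microRNAs, and IGF2BP3 (-1.86), an RNA-binding protein, while DLK1 was not called. Among receptors and uptake genes, 3 of 6 were higher in pBTSCs and 1 lower, where 14.8% of all genes were called higher. LRP2 (megalin), which takes up the vitamin D-binding protein and albumin from renal filtrate, was higher by 2.67 on the log2 scale, at 133 ± 67.2 (SD, n = 5) against 17.6 ± 2.20 (SD, n = 4) normalized counts. CUBN, its partner cubilin, was higher by 2.54. AMN, which anchors cubilin, was also called, at levels of 12.7 ± 8.70 (SD, n = 5) against at most 2.93 in any liver library. The floor of the CD45-/EpCAM+ library S13 is 77.3, above the levels given for LRP2 and AMN in that sort. AMN was at most 26.1 in S15 and S20, below the floor of S15 (37.8). The sizes of these differences therefore depend on values under the floor. FCGRT, the receptor chain that returns albumin to plasma, was lower by a log2 fold change of -1.09.

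Of 6 vitamin D genes tested, 3 were lower and 1 higher, where 10.3% of all genes were called lower and 14.8% higher. CYP27A1, a mitochondrial sterol hydroxylase able to activate vitamin D, had a log2 fold change of -2.88, DHCR7, which diverts the vitamin D precursor to cholesterol, of -2.30, and RXRA of -1.10. VDR, the vitamin D receptor, was higher by 3.18, at 73.2 ± 20.7 (SD, n = 5) against 12.6 ± 11.1 (SD, n = 4) normalized counts. The liver level of VDR is under the floor of S13 (77.3), so the size of this difference is uncertain. Among markers of other cells, 5 of 6 mesenchymal, 2 of 5 erythroid, 1 of 6 leukocyte, 2 of 6 endothelial and 1 of 5 cholangiocyte markers were higher in pBTSCs. In the same order 0, 0, 3, 2 and 1 were lower. The same shares over all genes apply, and nothing is read from a count of 1 in lists this small.

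By Pearson correlation over all groups, ALB, AFM and GC ran together and AFP ran apart, but within liver AFM did not run with ALB. Over the 17 libraries of normal depth, Pearson correlations of log2 values were 0.98 between ALB and GC, 0.96 between ALB and AFM and 0.98 between AFM and GC. AFP correlated with the other members at 0.16 to 0.32. These libraries share the step from pBTSCs to liver, which sets most of each value. Over the 13 liver libraries alone the correlation was -0.81 between ALB and AFP, 0.47 between ALB and GC, -0.25 between ALB and AFM and 0.72 between AFM and GC. It was 0.56 between AFP and AFM and -0.12 between AFP and GC. By Spearman rank correlation AFP and AFM stood at 0.83 over these 13 libraries. The 13 libraries hold the step between the title number ranges that AFP drew, so nothing is read from the correlations of AFP within liver. Over the 17 libraries the rank correlation was 0.58 for AFP and AFM and 0.42 for ALB and AFM. For ALB and GC it was 0.77, and for AFM and GC 0.80.

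Among 13221 named genes, the 5 most like ALB over the 17 libraries were ACSM4, TTR, APOC4, OTC and C8B (Pearson r from 0.995 to 0.997). Those most like AFM were DIO1, F10, PGLYRP2, FTCD and ASPDH (0.995 to 0.997), and those most like GC were EXTL1, SARDH, HAAO, SERPINA7 and GCGR (0.994 to 0.998). Those most like AFP were S100G, TMED3, GNL2, TCEAL9 and SLC6A3 (0.946 to 0.968). S100G, a vitamin D-dependent calcium-binding protein, stood at 1085 to 26222 normalized counts in liver S3 to S14, at 2.49 to 13.7 in liver S16 to S23 and at 15.7 to 88.4 in pBTSCs. Over the 13 liver libraries the genes most like AFP were ATP6V0D2, PRTN3, NPG1, C11orf24 and EPO (0.982 to 0.991). EPO encodes erythropoietin, the hormone of red cell formation, and PRTN3 a protease of neutrophil granules. EPO was low, at 25.7 to 55.5 normalized counts in liver S3 to S14 with a median of 0.942 in S16 to S23. ATP6V0D2 was low too, at 25.7 to 138 and 0 to 14.9. Both sets of libraries hold the step between the title number ranges that AFP drew, so nothing is read from which genes are most like AFP.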

How the data were processed

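Poly(A) RNA was sequenced from 20 libraries prepared with a stranded mRNA kit. The authors deposited a table of normalized counts per gene, treated here as a signal. The submitters' processing notes name STAR, Salmon and DESeq2. The genome build and annotation were not given in the sources used here. Low values lay near, not at, whole multiples of a step in each library, so no count test was run. The depth was estimated as the library total divided by that step.

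Values were taken as log2(normalized count + 1), so fold changes of low genes are understated. They were tested with limma 3.58.1 in R 4.3.3 over all 6 groups in 1 fit, with an intensity trend, for the 15576 genes that reached 10 normalized counts in 2 or more libraries. A call needed an adjusted p-value under 0.05 (Benjamini-Hochberg) and an absolute log2 fold change above 1. Single members were compared by exact two-sided permutation tests in scipy 1.17.1. Other steps used Python 3.11.15, numpy 2.4.6, pandas 2.3.3 and matplotlib 3.10.9. This fit was also tested on simulated normalized values with a spread set alike for all genes. That test says little about genes that spread as widely as ALB and AFP did here. Libraries were grouped by the labelled cell type, and the table held 0 sample columns left unused.

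The genes named are the 4 members in every library, genes of 11 lists (75 of 79 with a row; IGF2, H19, IGF2BP1 and KRT19 had none by that name; 3 further genes are not reported here), and the 5 named genes most correlated with each member. The members, lists and title number split were chosen with earlier results of these data known, AFP among them. Alternatives were other pseudocounts, filters, scalings and fits, and each library left out in turn. No sequences were used here.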

Additional observations from a re-analysis of the deposited data

Results flagged for a closer look

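AFP in the CD45-/EpCAM+ library S19 stood at 1004 normalized counts, far from the other 3 libraries of that group (82342 to 176993). S19 is the only library of that group in the later title number range. AFP drew that range, so the flag restates the split. In all, 12 combinations of a gene and a group were examined. The other liver libraries with AFP of this order lie in the same title number range, and among pBTSCs S7 stood at 1048.

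The difference of AFP between pBTSCs and liver had opposite signs in the 2 title number ranges, at -5.22 on the log2 scale for title numbers up to 14 and 2.95 for title numbers 15 and above. The pBTSC libraries were all below the liver libraries in the first range and all above them in the second. AFP drew the split of the liver libraries, so nothing is read from the opposite signs, and the difference was not tested.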

How the results depend on the processing

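ALB, AFM and GC kept their direction and their call against all 5 liver sorts under each of 30 alternatives (20 libraries left out in turn and 10 other settings), with an adjusted p of at most 0.0107 by limma. Leaving out libraries moved the ALB log2 fold change against CD45-/EpCAM+ cells between -10.01 and -8.39 and the AFP change between -4.64 and -2.16. Against CD45-/EpCAM- cells, the AFP call was lost in 14 alternatives, with log2 fold changes of -5.28 to -3.60, and the cause was not tested. Where a sort of 2 libraries lost 1, the lone library is assumed to vary like the others. Scaling each library to the same total moved the median of all genes against CD45-/EpCAM+ cells from 0.08 to 0.39 and the share of calls that were higher from 59.0% to 72.8% (54.7% to 75.5% against CD45-/EpCAM-, 53.6% to 67.1% against CD45+, 46.9% to 61.9% against CD31+ and 65.1% to 76.2% against CD146+ cells). Calls over all genes in CD45-/EpCAM- against CD45-/EpCAM+ cells numbered 436, but 0 with these groups alone, 718 after that scaling, 879 without the 3 shallow libraries and 0 to 1478 with a library left out (25 without S19, 0 without S5, 1478 without S14). Against CD146+ cells they numbered 3462, and 1554 without the shallow libraries or 1152 without S22 alone. Against CD31+ cells they fell from 2236 to 1018 without S21, and against CD45-/EpCAM- cells from 5698 to 3390 without S5. The ratios per kilobase of coding length were not run because no lengths were used here. The labels number no replicates and do not say that neighbouring title numbers share a donor, but for 14 of 15 liver libraries the nearest library lay between the same pBTSC title numbers. With the 4 neighbouring pairs of CD45+ and CD45-/EpCAM+ libraries as a replicate block, chosen after seeing the data, limma called 0 members and 0 of 15576 genes (921 at an unadjusted p under 0.05), with log2 fold changes of -0.34 for ALB, -0.29 for AFP, -0.13 for AFM and -0.30 for GC. The shallow libraries S13, S15 and S22 limit low genes, AFM in S15 above all.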
